A study of Mus musculus with 3 samples.

Results

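The serotonin receptors measured here were 10 genes of the mouse array, *Htr1a*, *Htr1b*, *Htr2a*, *Htr2b*, *Htr2c*, *Htr3a*, *Htr4*, *Htr5a*, *Htr6* and *Htr7*. They were chosen by name, and all probes that the array assigns to these names were taken. This gave 14 of the 41174 probes on the array: 3 probes for *Htr2c*, 2 each for *Htr2b* and *Htr4*, and 1 for each of the other 7 genes.

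The study profiled the choroid plexus epithelium (CPE), the cell layer that secretes cerebrospinal fluid into the brain ventricles, of 3 healthy mice. All 3 were C57BL/6, with no treatment or engineered allele named in the labels, and the methods describe them as adult females. CPE cells were cut by laser dissection from whole-brain cryosections of 20 µm, and their mRNA was amplified and labelled with Cy5 (red). Every array shared a reference, 1 RNA from the RPE (the retinal pigment epithelium) together with the choroid of C57BL/6 eyes, labelled with Cy3 (green). Each mouse had its own array and slide, and the dyes were not swapped, so a dye bias of a probe stays in its ratio. The reference was 1 RNA, and its biological spread is not part of any error given here. The single contrast is CPE over reference.

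Serotonin receptors translate the amine serotonin into intracellular signals, and all but *Htr3a* in this list are G protein-coupled. *Htr1a*, *Htr1b* and *Htr5a* couple to inhibitory Gi proteins, *Htr2a*, *Htr2b* and *Htr2c* to Gq and phospholipase C, and *Htr4*, *Htr6* and *Htr7* to Gs and cyclic AMP, while *Htr3a* encodes a subunit of a cation channel. *Htr2c* is the receptor classically associated with the choroid plexus, where serotonin acts on phosphoinositide turnover and on fluid secretion, and its transcript is a known substrate of adenosine-to-inosine editing.

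The array of mouse 3 stood apart in its background. The median of the 314 negative control spots in the CPE channel was 77.5 and 78.1 on the arrays of mice 1 and 2 and 357 on that of mouse 3, and in the reference channel it was 108, 105 and 229. The software's flag for a signal well above background was set in the CPE channel for 46.0% to 85.6% of all probes on an array, and in the reference channel for 68.6% to 84.2%, with mouse 3 highest in both. On that array all 14 receptor probes had the flag in both channels, although *Htr2b* probe 2, at 394, lay below 426, the 95th percentile of the negative controls there. Values with and without mouse 3 are therefore given for the receptors that differed. Markers matched the labelled tissue: all 9 CPE markers, among them *Ttr* (transthyretin), *Kcne2* and *Folr1*, were in the highest expression class, and 8 of 9 were higher in CPE than in the reference.

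The first question was which serotonin receptors gave a signal in CPE. Only 1 gene, *Htr2c*, was well above background in the CPE channel of every mouse, through 2 of its 3 probes. That was 2 of 14 receptor probes (14.3%), against 18475 of all 41174 probes (44.9%). In the reference channel 6 of 14 receptor probes (42.9%) met this criterion, namely the 3 *Htr2c* probes and those for *Htr3a*, *Htr5a* and *Htr6*, against 61.5% of all probes. The 95th percentile of negative controls was a second limit, chosen after seeing the data. In CPE 8, 6 and 13 of 14 receptor probes passed it in mice 1, 2 and 3. Of all probes 86.1%, 70.6% and 81.2% passed it on the same arrays, taken 1 at a time. The share of all probes that passed it on every array was not counted. On all arrays 5 receptor probes (35.7%) passed in CPE: those of *Htr2c*, *Htr5a* and *Htr6*. The remaining receptors are therefore described as not measured in CPE at this signal over background, which is not a statement that they are absent.

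Each probe was also placed in an expression class by the rank of its CPE intensity among all probes, averaged over the mice: high for ranks past the 90th percentile, moderate down to the 50th, low down to the 10th, and very low beneath it. A class ranks probes, and probes differ in hybridisation, so classes do not order transcripts by abundance. Of the 14 receptor probes 1 was high, 1 moderate, 12 low and 0 very low. Both the high and the moderate probe belonged to *Htr2c*. Without mouse 3 the low group fell from 12 to 6 probes, with 4 probes very low and 3 moderate, so the class of a probe near background depended on that array, while the high probe stayed the only high one.

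**Figure D1:**
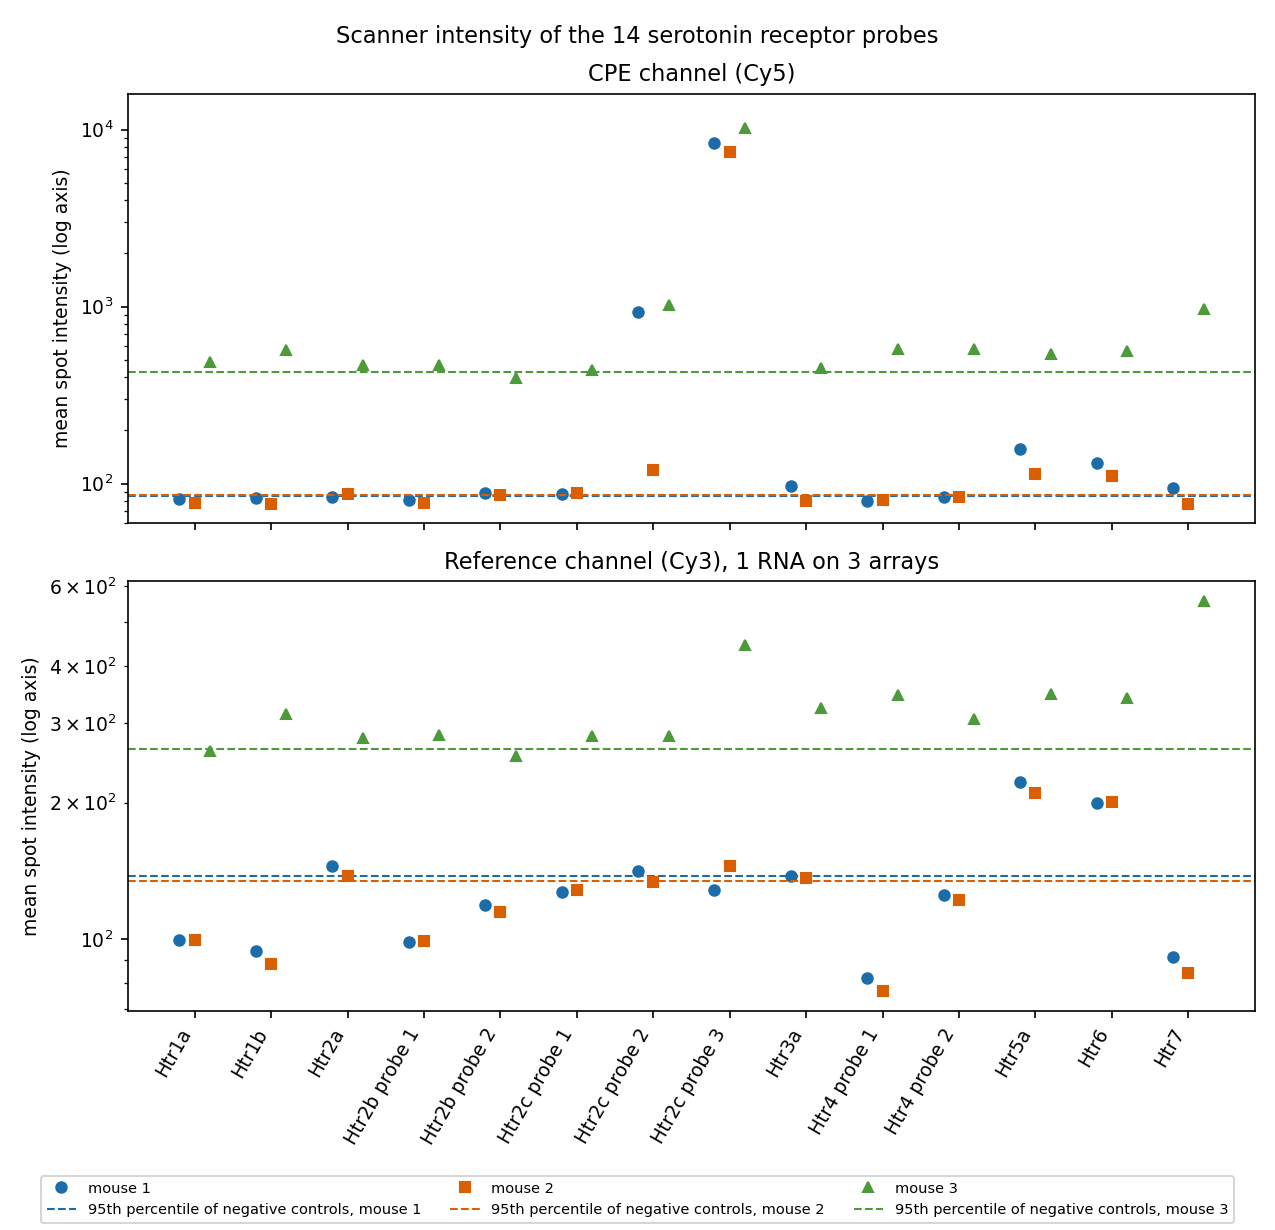
Mean spot intensity (log axis, no normalization) of each of the 14 receptor probes in the CPE channel (top) and the reference channel (bottom), with 1 point per array and dashed lines at the 95th percentile of the negative controls of each array. *Htr2c* probe 3 lies between 7483 and 10230 in the CPE channel, far above the lines, and most other probes lie near the line of their array.

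The Gq-coupled receptor *Htr2c* was the only member with a high-class probe. It was also the only one with probes that passed the test against the reference, at an adjusted p under 0.05 and at least 2-fold. Of the other members only *Htr3a*, *Htr5a* and *Htr6* had a tested probe. Its 3 probes lie on the plus strand of chromosome X and are numbered from 5′ to 3′ (mm8): probe 1 at chrX:142323683-142323742, probe 2 at chrX:142441467-142441527 and probe 3 at chrX:142442963-142443022. No gene annotation of that build was used, so exon and UTR positions are not given. Probe 1 was designed on a cDNA clone entry and lies 119280 bases upstream of probe 3, and probe 2 lies 1496 bases upstream of it.

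*Htr2c* probe 3 had CPE intensities of 8426, 7483 and 10230 in mice 1, 2 and 3. The reference gave 128, 145 and 446 on the same arrays, so CPE was brighter in 3 of 3 mice and the channels did not overlap. Its log2 CPE level after normalization between arrays was 13.13 ± 0.16 (SD, n = 3), and its rank was at percentile 97.5, 98.4 and 98.4. No spot of it was saturated.

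The log2 ratio of CPE over reference of *Htr2c* probe 3 was 5.53, 5.64 and 4.10 in mice 1, 2 and 3. The mean was 5.09 ± 0.30 (SE, n = 3), or 34.0-fold, with a 95% confidence interval from 4.40 to 5.77 and an adjusted p of 2.51e-05 by limma's moderated test. By this ratio it ranked 2 of 25841 probes tested, behind 1 probe of *Kl* (klotho, a coreceptor for fibroblast growth factor signalling). The value of mouse 3 was the lowest, and without that mouse the mean ratio was 5.58 with an adjusted p of 5.12e-05 in limma.

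The reference signal behind this ratio was dim. On the array of mouse 1 the reference intensity of 128 was under the 95th percentile of the negative controls, 138, whereas on the other arrays it was above it, at 145 against 134 and at 446 against 263. The reference RNA was the same on all arrays. After normalization between arrays, the reference level of this probe ranked at percentile 2.34, 17.1 and 77.1 on them. That normalization acts on the mean of both channels, so this is not a rank of reference intensity alone. On the array of mouse 1, *Htr2c* probe 1, with a reference intensity of 127, ranked at 22.7. Among 15179 probes with reference intensities under 150 on the first 2 arrays, the median on the array of mouse 3 was 293, and 1214 of them (8%) were above the *Htr2c* value. The log ratio made by the scanner software, which subtracts its own background estimate, put the mean ratio at 6.36 with an adjusted p of 0.00378 in limma. The call was the same under every alternative run, and the adjusted p ranged from 4.13e-09 to 0.00378 over them.

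*Htr2c* probe 2 gave a smaller and more variable signal. Its CPE intensities were 939, 120 and 1016 in mice 1, 2 and 3, against reference intensities of 141, 133 and 281. Mice 1 and 3 were far above the reference and mouse 2 was slightly below its own reference reading before normalization. Its mean level ranked at percentile 70.9, and the mice at 82.4, 56.7 and 64.0. Ranked among only the probes well above background, it lay at 35.3 and probe 3 at 95.9.

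The log2 ratio of *Htr2c* probe 2 was 2.55, 0.71 and 1.43, with a mean of 1.57 ± 0.31 (SE, n = 3) or 2.96-fold. Its 95% confidence interval ran from 0.84 to 2.29, and the adjusted p was 0.00651 in limma. All 3 mice were above 0, and mouse 2 was the only one under the 2-fold line. The reference of this probe was dim as well, above the 95th percentile of the negative controls on 2 of 3 arrays, and the fold changed with the background treatment. Without mouse 2 the mean was 1.99, without mouse 1 it was 1.07, the lowest, and without mouse 3 it was 1.63. The scanner software's log ratio gave 2.96 on the log2 scale, with an adjusted p of 0.0182 in limma, and over the alternatives the adjusted p ranged from 2.33e-05 to 0.0274.

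*Htr2c* probe 1, the most upstream, showed no difference that passed the test. Its CPE intensities of 87.6, 88.8 and 438 were close to those of the negative controls, and the reference gave 127, 129 and 281. The reference exceeded the 95th percentile of the negative controls on 1 of 3 arrays. The software flagged this probe on 1 CPE array and 3 reference arrays. The log2 ratios were -0.080, 0.10 and -0.16, with a mean of -0.046 ± 0.15 (SE, n = 3), an interval from -0.40 to 0.31 and an adjusted p of 0.838 in limma. The ratios of the 3 probes of this gene were therefore ordered from 5′ to 3′ in every mouse, up to the highest of the family. The low end of this order compares readings near background in both channels, so it does not show equal transcript levels at probe 1.

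**Figure D2:**
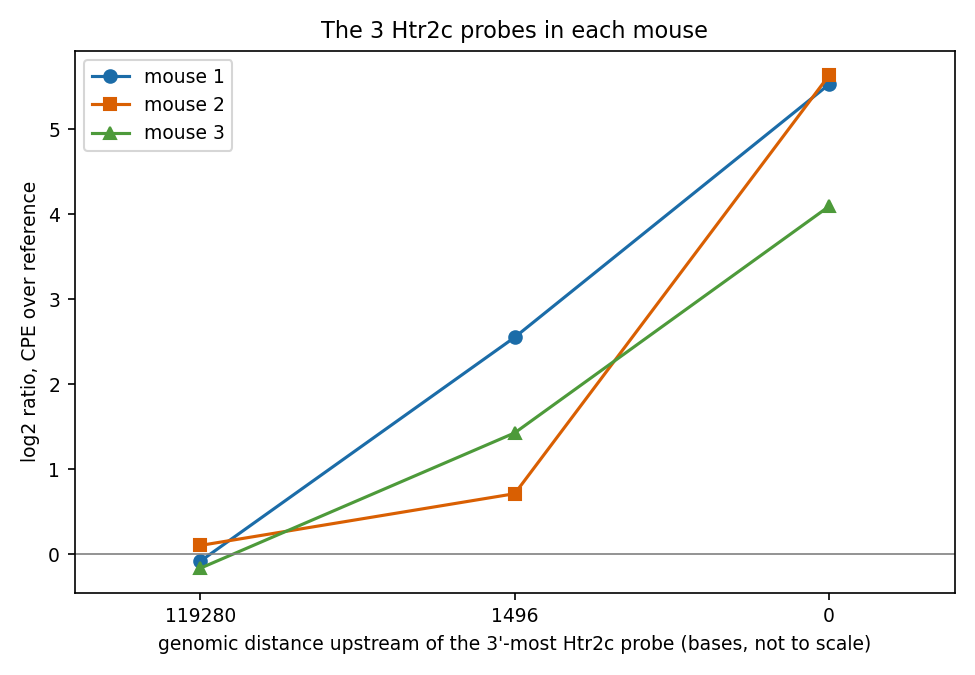
Log2 ratio of CPE over reference for the 3 *Htr2c* probes in each mouse, arranged by genomic distance in bases upstream of the 3′-most probe (categories, not to scale). Every line rises toward the 3′-most probe, and at the middle probe the mice spread from 0.71 in mouse 2 to 2.55 in mouse 1.

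The ratio of probe 2 minus that of probe 3 was -2.98, -4.92 and -2.67 on the log2 scale in mice 1, 2 and 3. All 3 differences exceeded in size the SD of either probe, 0.93 and 0.86, and the difference between the probes was not tested. Mouse 2 had the widest gap. Across 2821 genes with probes measured in both channels and outermost probes at least 100 bases apart, the gap of the upstream minus the downstream probe in mouse 2, relative to the other mice, had a median of -0.30. In mice 1 and 3 it was 0.17 and 0.15. For *Htr2c* the same quantity was -2.10 in mouse 2, and 28 of the 2821 genes (0.993%) were lower. In mice 1 and 3 it was 0.82 and 1.28, with 91.9% and 98.2% of the genes lower. In log2 CPE level after normalization between arrays, probe 2 minus probe 3 was -2.9, -5.5 and -4.5 in mice 1, 2 and 3. By that measure the gap was again widest in mouse 2. It was narrowest in mouse 1, whereas by ratio it was narrowest in mouse 3. Mouse 2 was singled out by its *Htr2c* gap in these same data, so its rank is a description and not a test. Genomic position of the probe moved with the ratio in this gene, and its part in the result was not tested.

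The promoter of *Htr2c* is shown because this is the gene the family's result turns on. The RefSeq promoter (GRCm38.p6, plus strand, chrX:146962263-146962562) is a different build from the probe coordinates. The 250 bases before the start are in lower case and the 50 bases from the start onward in capitals.
Htr2c promoter: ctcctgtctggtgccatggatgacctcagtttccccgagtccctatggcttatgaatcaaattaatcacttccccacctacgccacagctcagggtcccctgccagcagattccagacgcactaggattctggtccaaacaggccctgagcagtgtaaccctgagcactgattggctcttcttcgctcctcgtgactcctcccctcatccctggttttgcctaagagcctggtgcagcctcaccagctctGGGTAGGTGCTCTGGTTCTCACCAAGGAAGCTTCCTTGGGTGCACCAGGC
Motifs were searched on both strands of this 300-base window: the letters TAATCC, a core bound by Otx homeodomain factors, the TATA box TATAAA, and the GC box GGGCGG. Each matched 0 times, where 7.06% of all 32851 promoters of that length hold the Otx core, 13.6% the TATA box and 35.7% the GC box. The GC box matched in the promoters of *Htr1a*, *Htr2a* and *Htr6*, and the Otx core and the TATA box in 0 of the 8 members with a promoter in the table.

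Of the 14 receptor probes 6 could be tested, because the software had flagged them in the CPE or the reference channel of all 3 mice. The 2 that passed, at an adjusted p under 0.05 and at least 2-fold, were the *Htr2c* probes 2 and 3, both higher in CPE. Over all 25841 probes tested, 17.3% passed, with 7.09% higher in CPE and 10.2% lower. The median log2 ratio of the tested probes was -0.040. When the filter was dropped, the 8 untested receptor probes had adjusted p-values from 0.489 to 0.984 in limma. In bulk RNA, more cells that express a gene and more RNA per cell cannot be told apart.

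The other members of the Gq group stayed near the background in CPE and neither was tested. *Htr2a*, a receptor of cortical neurons and smooth muscle (chr14:73379298-73439763, plus strand, a probe whose coordinates span 60466 bases), had CPE intensities of 83.7, 87.5 and 469. The reference gave 145, 138 and 278, and the log2 ratios of -0.26, 0.022 and 0.047 lay on both sides of 0. *Htr2b*, known from heart valves and vessels, had 2 probes on the minus strand (chr1:87930838-87930897 and chr1:87941708-87941767). Their CPE intensities were 81.2, 78.1 and 468 for the first and 88.1, 86.8 and 394 for the second, and their mean log2 ratios were -0.042 and 0.033. Neither of these Gq receptors showed the ratio seen at *Htr2c* probe 3 in any mouse.

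Among the Gi-coupled receptors, *Htr1a* and *Htr1b*, which act as autoreceptors on serotonergic neurons, were not tested. *Htr1a* (chr13:106567541-106567600, plus strand) had CPE intensities of 82.3, 78.3 and 489, with log2 ratios of 0.035, 0.060 and 0.35. *Htr1b* (chr9:81428126-81428185, minus strand) had 83.1, 76.4 and 567, with log2 ratios of 0.13, 0.10 and 0.014. In mice 1 and 2 these 4 readings were all below the 95th percentile of the negative controls.

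*Htr5a*, the third Gi-coupled receptor (chr5:28173221-28173280, plus strand), was above that percentile in both channels of every array. Its CPE intensities were 156, 113 and 542 and its reference intensities 222, 210 and 348. After normalization CPE was lower in 3 of 3 mice, with log2 ratios of -0.39, -0.18 and -0.30. The mean of -0.29 ± 0.15 (SE, n = 3) did not pass the test, with an interval from -0.64 to 0.061 and an adjusted p of 0.167 in limma.

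Of the Gs-coupled receptors, *Htr6* (chr4:138333844-138333903, minus strand), a receptor of striatal and cortical neurons, resembled *Htr5a*. It had CPE intensities of 131, 110 and 562 against 200, 200 and 341 in the reference. Its log2 ratios were -0.32, -0.16 and -0.18, all below 0, with a mean of -0.22 ± 0.15 (SE, n = 3), an interval from -0.57 to 0.13 and an adjusted p of 0.293 in limma. Both *Htr5a* and *Htr6* were flagged on all arrays only in the reference, and the scanner software's log ratio gave -0.54 and -0.41, with adjusted p-values of 0.103 and 0.179 in limma.

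*Htr7* (chr19:36025418-36025477, minus strand), which is also found in smooth muscle, had the widest spread of CPE percentiles between arrays, an SD of 33.5. Its CPE intensities were 95, 77.3 and 968, at percentiles 25.3, 5.71 and 71.0. The reference, the same RNA each time, moved alike, from 91.2 and 84.0 to 558, so the rise on the array of mouse 3 was in both channels. The log2 ratios of 0.44, 0.086 and -0.23 did not share a direction, and the probe was not tested. Both *Htr4* probes, on chromosome 18, were near background in mice 1 and 2, with CPE intensities from 80.3 to 84.2, and read 574 and 580 in mouse 3. Their mean log2 ratios were 0.097 and 0.0057, without a test.

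The channel subunit *Htr3a* (chr9:48651409-48651468, minus strand) was measured in the reference, at 138, 136 and 324, and in CPE only near background, at 97.2, 79.7 and 451. Its log2 ratios were 0.034, -0.19 and -0.56, with a mean of -0.24 ± 0.17 (SE, n = 3), an interval from -0.64 to 0.16 and an adjusted p of 0.316 in limma. The scanner software's log ratio gave -0.96 with an adjusted p of 0.026, short of 2-fold. In order of the mean ratio, the tested probes ran from *Htr2c* probe 3 through *Htr2c* probe 2 to *Htr2c* probe 1, *Htr6*, *Htr3a* and *Htr5a*. The last 4 have intervals that overlap each other and 0, so their order is not resolved, whereas the intervals of the first 2 overlap neither each other nor the rest.

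**Figure D3:**
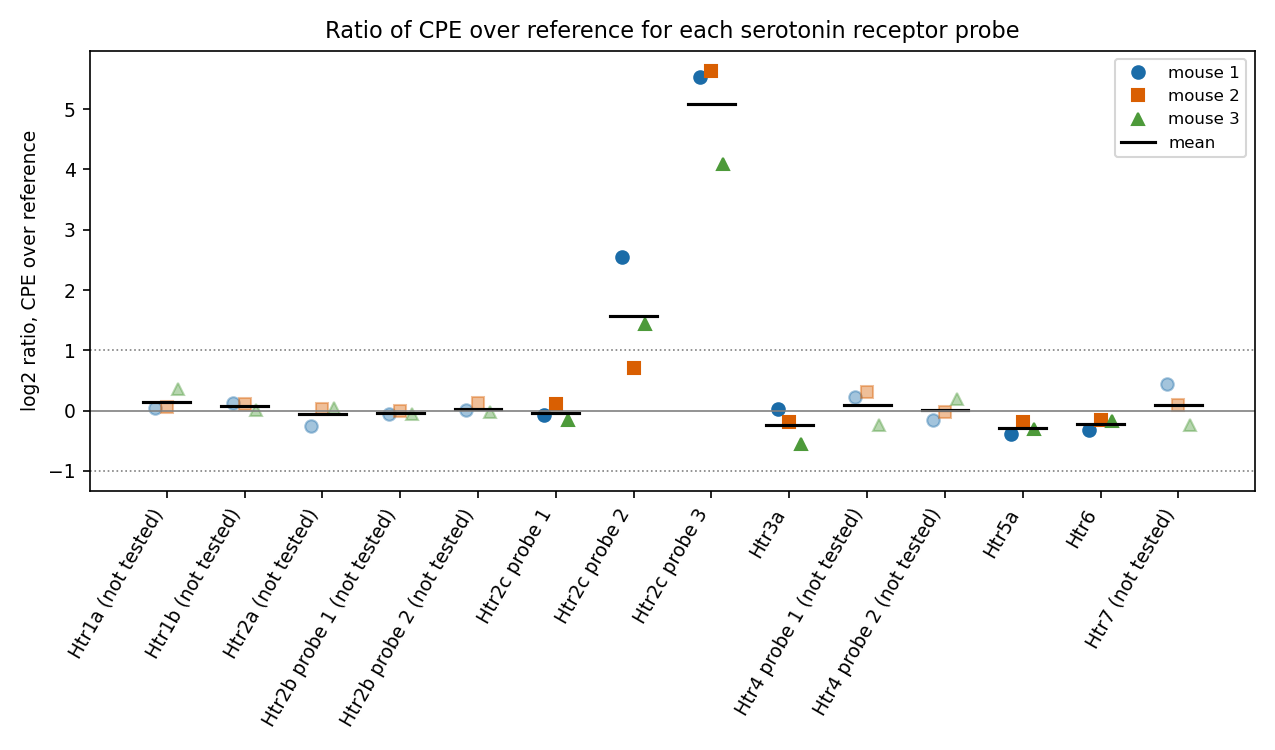
Log2 ratio of CPE over reference for each receptor probe, with 1 point per mouse, a bar at the mean of the 3 mice, dotted lines at a 2-fold difference and pale points for probes that were not tested. *Htr2c* probe 3 stands at a mean of 5.09 and probe 2 at 1.57, and the means of the other 12 lie between -0.29 and 0.15.

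To place *Htr2c* among other genes, the genes whose ratios in the 3 mice were nearest to those of its probe 3 were listed by mean absolute difference, among 14566 named genes with 1 probe each. They were *Kl* (0.62), *Efcab10* (0.66), *1110017D15Rik* (0.67), *Serpinb1b* (0.69) and *Tbc1d9* (0.76 log2 units). *Kl*, itself a CPE marker, had log2 ratios of 6.11, 5.20 and 4.95, while the mean ratios of the other 4 were between 4.33 and 4.43. With 3 arrays this likeness is a description of level alone.

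Markers of other cells were read beside the *Htr2c* ratio. The summed level (linear intensity after normalization) of the 9 CPE markers was between 178200 and 187900 in CPE and between 33030 and 38400 in the reference. All 3 ependymal markers on the array were also higher in CPE, with sums from 8641 to 13980 against 726 to 937. Of 9 neuronal markers 5 were lower in CPE and 0 higher, with sums from 2529 to 3009 against 18530 to 20710. Of 4 markers of serotonergic neurons, *Fev*, *Tph2* and *Slc6a4* were in the low class, and *Gata3*, which other cells also use, was moderate and higher in CPE at a log2 ratio of 1.12 (adjusted p 0.00282 in limma). Of 10 RPE and melanocyte markers 9 were lower in CPE, and of 7 photoreceptor markers 7 were. The part of these cells in the receptor ratios was not tested.

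Beyond the 10 receptors, a list of 64 genes for serotonin handling and receptor signalling was read from the same fit, with the brightest probe for each gene. The list was put together with earlier results of these data known. Of these 63 were on the array and 52 were tested, of which 8 were higher in CPE and 13 lower, with a median log2 ratio of -0.063. Over all 17498 genes tested in this way 19.3% passed, with 8.17% higher and 11.2% lower. These shares are also the background for the counts in the smaller lists below. Median centring in place of loess gave 9 higher and 9 lower, and the number higher was 5 both without mouse 1 and without background correction. With both channels required to be above background, 7 were higher and 10 lower.

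The 2 largest ratios in favour of CPE belonged to the clearance of serotonin. *Slc29a4*, the plasma membrane monoamine transporter, had log2 ratios of 3.97, 3.14 and 3.51 in mice 1, 2 and 3, with a mean of 3.54 ± 0.19 (SE, n = 3), an adjusted p of 1.92e-05 in limma and percentile 99.0. *Maob*, a monoamine oxidase, was at 2.86, 2.64 and 2.67, with a mean of 2.72 ± 0.15 (SE, n = 3) and an adjusted p of 2.12e-05. *Aldh2*, which oxidises the aldehyde that monoamine oxidase forms, was at 2.47, 0.78 and 2.74, with a mean of 2.00 ± 0.35 (SE, n = 3) and an adjusted p of 0.00356. These were all high-class probes, whereas *Maoa*, the isoform with the greater preference for serotonin, was moderate at percentile 87.5 with a ratio of 0.096 and an adjusted p of 0.669 in limma.

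The other carriers gave mixed results. *Slc6a4*, the serotonin transporter of neurons and platelets, was in the low class with a ratio of 0.25 and an adjusted p of 0.225 in limma. The vesicular transporter *Slc18a1* was at 1.46 (adjusted p 0.000672) and *Slc18a2* at -1.28 (adjusted p 0.00125). Each was flagged above background on all arrays only in the channel where it was brighter, and no other probe of either gene passed. Of 7 transport genes 2 were higher, 1 lower and 3 not tested.

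In serotonin synthesis, 1 of 6 genes tested passed. *Ddc*, aromatic amino acid decarboxylase, was lower in CPE, with log2 ratios of -2.44, -2.21 and -2.22 and an adjusted p of 4.47e-05 in limma. The rate-limiting tryptophan hydroxylases were in the low class: *Tph1* had an adjusted p of 0.926, and *Tph2* was not tested. Of the genes for the hydroxylase cofactor, *Pts*, *Spr* and *Qdpr* were in the high class, and *Gch1*, the first enzyme of its synthesis, was in the low class at a ratio of -0.79 (adjusted p 0.00616). All 4 differed from the reference by less than 2-fold.

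Among 15 genes of the Gq pathway used by *Htr2c*, 14 were tested, 2 were higher in CPE and 5 lower. Over all genes tested 8.17% were higher and 11.2% lower. *Itpr1*, an inositol trisphosphate receptor that releases calcium from stores, had log2 ratios of 2.03, 2.19 and 2.08, with a mean of 2.10 ± 0.15 (SE, n = 3), an adjusted p of 5.94e-05 in limma and percentile 99.4. *Plcb3*, a phospholipase C, was close to the 2-fold line at 1.00 (adjusted p 0.00369). The lower genes were *Prkcb* (-2.55), *Itpr3* (-1.72), *Prkce* (-1.71), *Itpr2* (-1.35) and *Gnaq* (-1.28). Another tested probe of *Itpr1* passed at 1.81. Those of *Prkcb* (-0.92), *Gnaq* (-0.75), *Prkce* (0.26 and 0.24) and *Itpr2* (-0.043, -0.46 and -0.050) did not pass. *Itpr3* and *Plcb3* had 1 probe each. *Gna11*, the other widely used Gq subunit, belonged to the high class and had a ratio of -0.21 and an adjusted p of 0.309 in limma.

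Of 16 genes of Gs and Gi signalling, 14 were tested, 1 was higher and 5 were lower, against 8.17% and 11.2% of all genes tested. *Adcy6*, an adenylyl cyclase, was higher at 1.04 (adjusted p 0.00206 in limma) and high in class. *Adcy1*, a neuronal adenylyl cyclase, was lower at -3.60 (adjusted p 5.09e-05), and *Adcy7*, *Adcy2*, *Gnaz* and *Gnao1* were lower by smaller amounts. Both *Adcy1* and *Adcy2* were flagged above background on 2 CPE arrays and 3 reference arrays. Another tested probe of *Adcy2* passed at -1.05. Those of *Adcy1* (0.062), *Gnaz* (0.13 and 0.097) and *Gnao1* (0.16) did not pass. *Gnas*, *Gnai2* and *Gnai3* were in the high class and none of them passed.

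Of 10 partners, regulators and editing enzymes, 1 was higher and 1 lower. *Dlg4*, a scaffold that binds the tails of Gq-coupled serotonin receptors, was at 1.09 (adjusted p 0.00254 in limma). *S100a10*, an adaptor of *Htr1b* and *Htr4*, was lower in 3 of 3 mice at -4.02, -3.76 and -3.70 (adjusted p 7.72e-06). The editing enzymes *Adar* and *Adarb1*, which act on the *Htr2c* transcript, were moderate at percentiles 82.9 and 87.2, with ratios of 0.21 and -0.55 and adjusted p-values of 0.356 and 0.0513. *Mpdz*, a scaffold for *Htr2c*, was at -0.23, -1.91 and -0.27 and did not pass (adjusted p 0.0842).

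Serotonin receptors outside the list of 10 were *Htr1d*, *Htr1f*, *Htr3b* and *Htr5b*. *Htr5b* was well above background in CPE on all arrays but in the reference on only 1, so its ratio rests on a dim reference. Its log2 ratios were 0.47, 1.30 and 0.53. Its mean of 0.77 ± 0.20 (SE, n = 3) had an adjusted p of 0.0198 in limma and was under 2-fold. The other 3 were in the low class and not tested.

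Receptors for other amines and for acetylcholine served as a comparison. Of 24 such genes 0 were in the high class, 5 moderate, 17 low and 2 very low. Of 13 tested, 0 were higher in CPE and 3 lower, against 8.17% and 11.2% of all genes tested, and their median was -0.39. The 3 lower genes were the dopamine receptors *Drd4* (-2.32) and *Drd1* (-1.20) and the adrenergic receptor *Adrb1* (-1.65). *Drd1* was flagged above background on 1 CPE array and 3 reference arrays, and 2 genes were lower when both channels were required. The highest tested ratio among them was 0.41, for *Adra1d*. With the scanner software's log ratio 1 was higher and 7 were lower. In that set, as among the serotonin receptors other than *Htr2c*, most probes were near background in CPE.

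Single probes decided many of these gene calls. Of the 24 genes past the threshold in both lists, 17 had another probe on the array, in all 27 further probes, of which 16 were tested. Of those 3 passed in the same direction, for *Itpr1*, *Adcy2* and *Drd4*, 0 passed in the opposite direction and 13 did not pass. For *Adcy1* the other tested probe was at 0.062, and for *Aldh2* it was at 0.69. *Slc29a4*, *Maob* and *S100a10* had 1 probe each.

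**Figure D4:**
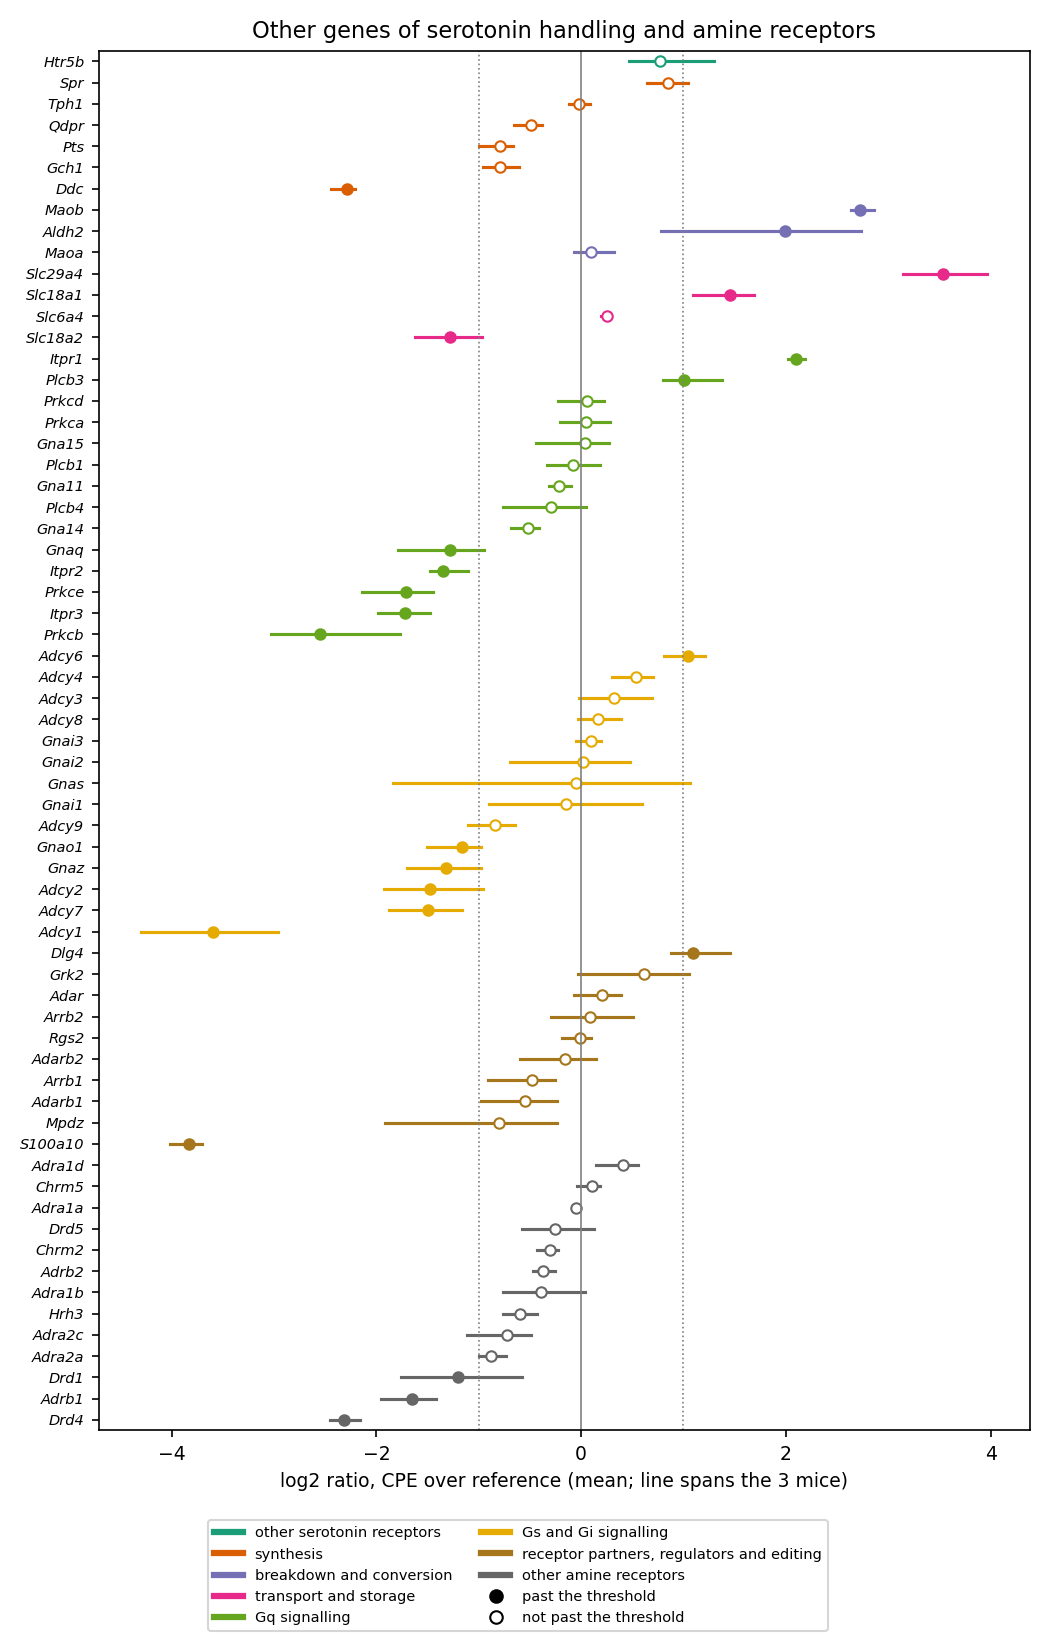
Mean log2 ratio of CPE over reference for the tested genes of serotonin handling, receptor signalling and the other amine receptors, coloured by list, with a line from the lowest to the highest mouse, filled points for genes past the threshold and dotted lines at a 2-fold difference. *Slc29a4*, *Maob*, *Itpr1* and *Aldh2* lie farthest to the right and *S100a10* and *Adcy1* farthest to the left.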

How the data were processed

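Each of 3 arrays carried the CPE of 1 mouse in red and the common RPE and choroid reference in green. The authors scanned them with Agilent Feature Extraction 9.5.3.1, and the deposited scanner tables hold the mean intensity of each spot in both channels, its local background and flags, with probe positions on mm8. They also hold, per the file headers, the log10 of processed red over green. A deposited table holds log2 levels that the authors normalized with Aquantile, which ranked with the CPE channel at 0.998, 0.998 and 1.00 on the arrays.

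Control spots and spots flagged as outliers were dropped, and repeats of a probe were averaged, leaving 41174 probes. Accessions matched RefSeq for 23374 (56.8%), among them 13 of 14 receptor probes, and the rest kept the name in the file. With R 4.3.3 and limma 3.58.1, intensities were corrected by normexp with an offset of 50 and normalized by loess within arrays. A probe flagged as well above background in the same channel of all 3 arrays, in either dye, was tested against a log2 ratio of 0 with limma's moderated test and Benjamini-Hochberg adjustment over all of them. A probe passed at an adjusted p under 0.05 and at least 2-fold. For gene lists the probe brightest over both channels stood for a gene. Classes followed the study's percentiles of the Aquantile log2 CPE level. The procedure was tested on simulated data. The number of arrays limits precision.

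The receptors and gene lists were chosen with earlier results of these data known. All receptor probes are named. Of the other lists, genes named by rule were those past the threshold with a log2 ratio of at least 2 in size and those in the high class, and for *Htr2c* the 5 genes with nearest ratios. Others were named after their values were seen. Alternatives were no background correction, median centring, the scanner software's log ratio, no filter or a filter in both channels, array weights, and leaving out each mouse. Background estimated from negative controls, and detection against their 95th percentile, were added after seeing the data.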

Additional observations from a re-analysis of the deposited data

How the results depend on the processing

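The 2 *Htr2c* probes were the only receptor probes past the threshold under every alternative run. For probe 3 the mean log2 ratio was 4.74 without background correction, 5.63 with median centring, 5.42 with background from negative controls (chosen after seeing the data), 5.33 with array weights, and 4.81 to 5.58 with each mouse left out in turn. Probe 2 gave 1.28, 1.68, 1.83, 1.86 and 1.07 to 1.99. The scanner software's log ratio gave 6.36 and 2.96. Median centring moved the median of all tested probes by 0.13, so that probe 3 lay 5.54 above it, against 5.13 with loess.

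Over all probes, median centring put 3744 higher and 1842 lower, and the scanner software's log ratio 2850 higher and 6762 past the threshold in all, against 1833 and 4462. Of the pathway genes 5 were higher without background correction, and 5 to 9 with each mouse left out. Of the other amine receptors the scanner software's log ratio put 1 higher and 7 lower, 8 in all. Loess before Aquantile, and the deposited table, each put 2 receptor probes in the very low class. Ranked among probes well above background in CPE, 1 was low and 0 moderate. With each mouse left out, 0 to 4 were very low, 6 to 11 low and 2 to 3 moderate. Against the 95th percentile of negative controls, 5 receptor probes were detected in CPE on all arrays, against 2 by the software's flag. The cause of these shifts was not tested.

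Of the receptors, 8 probes were flagged above background on all arrays in neither channel and were not tested, so signal over background limits what can be said of them. Each group had under 4 samples, so single outlying arrays were not sought by test. The ratio test compared CPE with the reference on the same array. No pairing between arrays was possible because they form 1 group.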
